A study of Mus musculus with 6 samples.

Results

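Endothelin and the prostanoids are vasoactive signals that are made by the vessel wall and act within it. Their machinery was followed here through 10 genes chosen by name: the peptide gene Edn1, its processing enzyme Ece1 and the receptors Ednra and Ednrb, the cyclooxygenases Ptgs1 and Ptgs2, the terminal synthases Ptgis, Ptges and Tbxas1, and the prostacyclin receptor Ptgir. All 10 were among the 47729 genes counted and among the 14625 genes tested. The rule that names them uses no measured value, although the genes were chosen with earlier results of these data known. Lung endothelial cells (ECs) were sequenced in 3 libraries from wild-type (WT) mice and 3 from leene-KO mice (KO hereafter). The KO mice carry a CRISPR-Cas9 deletion, in every cell, of the region that encodes leene, the mouse counterpart of the long noncoding RNA LEENE. The study states that this region also encodes other long noncoding RNAs. In its assays of heart and aorta, their levels did not differ significantly between the genotypes. The KO mice were on the C57BL6 background, and the WT mice were their littermates. Mice of both groups were male, aged 14 weeks, kept on a normal chow diet and given Angiotensin II (AngII) at 1000 ng/kg/min from an osmotic pump for 2 weeks. There was no group without AngII, so the values compare genotypes under infusion and not AngII with its absence. The comparison asks whether deletion of leene changes the EC transcriptome in mice with AngII-induced hypertension.

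The labels name CD31-enriched cells pooled from 3 mice in each group, whereas the study's methods name CD144 as the sorting antigen, and the sources leave unclear if each library came from a single mouse or from a pool. The p-values below therefore measure the spread between these libraries, which may be technical. Library totals ran from 24464324 to 35184063 counts, with 37.4% to 54.5% of them on mitochondrial genes. The annotation that was counted holds no row for Gm41148, the leene gene, so the deletion was not checked and the genotypes are those of the labels. Pecam1, which encodes CD31, was at 313 to 582.5 CPM (counts relative to the library total, scaled between libraries by edgeR's TMM method), and Cdh5, which encodes CD144, was at 178 to 753 CPM. Markers of other lung cells were present as well. The summed level of 7 alveolar type II markers was 5417, 50642 and 15623 CPM in WT replicates 1, 2 and 3, and 40009, 48623 and 39317 CPM in KO replicates 1, 2 and 3, so WT replicate 2 lay with the KO libraries and above the other WT libraries. None of these markers was at 0 in all libraries. The summed B cell markers were 6.63 to 15.8 CPM in WT and 54.8 to 59.8 CPM in KO.

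By way of background, endothelin-1 is released by ECs as an inactive precursor that endothelin-converting enzyme cuts to the active peptide. The receptor ETA on smooth muscle transmits constriction, while ETB on ECs releases nitric oxide and prostacyclin and takes up circulating endothelin, for which the lung is a main site of clearance. Prostanoids start from arachidonic acid, which the cyclooxygenases turn into prostaglandin H2, and the terminal synthase of the cell then decides whether prostacyclin, a dilator that restrains platelets, thromboxane, a constrictor that activates them, or prostaglandin E2 is formed.

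None of the 10 genes differed between KO and WT lung ECs past the threshold, which was 0.05 for the p-value of edgeR's quasi-likelihood test after Benjamini-Hochberg adjustment over every gene tested. Over all 14625 genes, 16 passed, or 0.109%. None of the 10 had an unadjusted p under 0.05 either, against 10.3% of all genes. DESeq2, limma-voom and edgeR's likelihood ratio test also called 0 of the 10, with 0, 1 and 2 of them at an unadjusted p under 0.05. The fitted log2 fold change was above 0 for 9 of the 10 and below 0 for Edn1 alone, while 54.1% of all genes tested were fitted above 0. The median log2 fold change was 0.37 over the 10 genes and 0.03 over all genes tested. The libraries of the groups did not overlap for Ednra alone, or 1 of 10, against 17.8% of all genes.

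**Figure D1:**
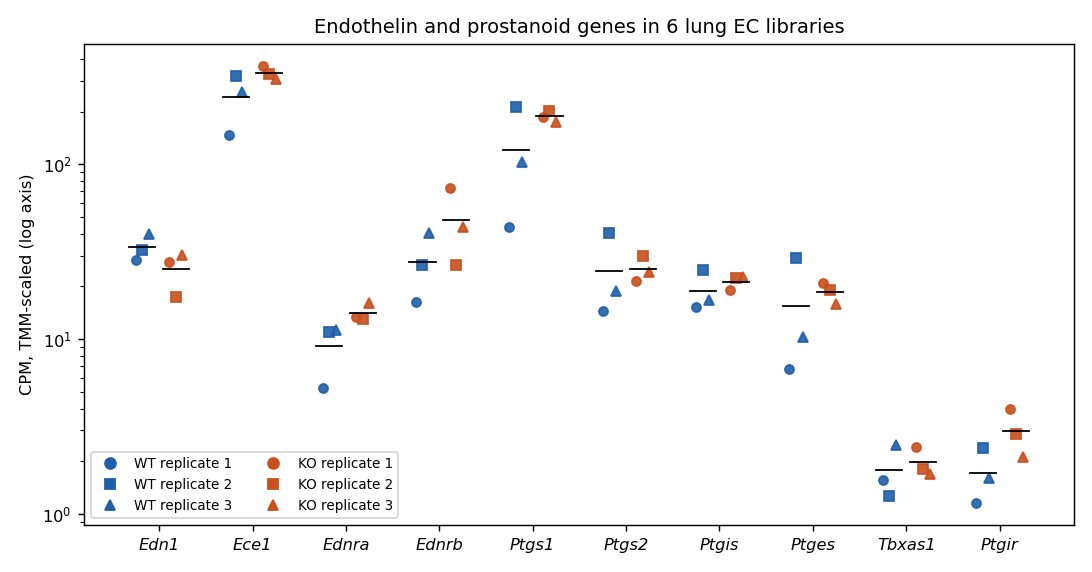
Level of each of the 10 genes in every library, in TMM-scaled CPM on a log axis, with WT libraries in blue, KO libraries in orange, a marker shape for each replicate number and a black line at the mean of each group. The groups are apart for Ednra alone, with 5.21 to 11.3 CPM in WT and 12.9 to 16.1 CPM in KO, and WT replicate 1 is the lowest library for 8 of the 10 genes.

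Levels were compared between genes per length, as CPM per kilobase of counted exon. Ece1 and Ptgs1 led the order, with medians over the 6 libraries of 59.3 and 46.5 CPM per kilobase. Edn1 followed at 12.5, Ednrb at 8.30, Ptgis at 8.03, Ptgs2 at 4.98, Ptges at 4.46 and Ednra at 2.21 CPM per kilobase. Ptgir at 0.672 and Tbxas1 at 0.192 CPM per kilobase stood last. The ranges of neighbours in this order overlapped throughout, except that Ptgir (0.345 to 1.20) lay above Tbxas1 (0.139 to 0.273). That gap rests on the counted lengths, 3334 bases for Ptgir and 9094 for Tbxas1. In CPM, not divided by length, Ptgir (1.15 to 3.997) and Tbxas1 (1.26 to 2.48) overlapped. The constitutive cyclooxygenase thus lay above the inducible enzyme, with ranges of 11.3 to 54.9 CPM per kilobase for Ptgs1 and 3.15 to 8.87 for Ptgs2. Counts were ample for most of the genes, from 213 counts for Ednra to 10960 for Ece1 in a library, but Tbxas1 rested on 43 to 64 counts and Ptgir on 34 to 93.

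Edn1, on chromosome 13 of GRCm38 (42301270 to 42307989, plus strand), encodes the precursor of endothelin-1. WT replicates 1, 2 and 3 had 28.5, 32.4 and 39.9 CPM, and KO replicates 1, 2 and 3 had 27.5, 17.4 and 30.1 CPM. The lowest value belonged to KO replicate 2 and the highest to WT replicate 3, and KO replicate 3 lay above WT replicate 1, so the groups overlapped. The log2 fold change was -0.42 (standard error 0.23, 95% interval -0.95 to 0.10, unadjusted p = 0.0994, adjusted p = 0.548 in edgeR's quasi-likelihood test). It was below 0 in all 18 alternative settings, between -0.59 and -0.25. In these bulk libraries, fewer cells of a type and less RNA per cell cannot be told apart, for this gene as for those that follow.

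Ece1 (chromosome 4, 137862237 to 137965229, plus strand) encodes the membrane protease that makes the active peptide. Its level was 147, 322 and 259 CPM in WT and 366, 327 and 307 CPM in KO. WT replicate 1 stood apart below the other 5 libraries, and WT replicate 2 lay within the KO range. The fit gave a log2 fold change of 0.46 (standard error 0.28, 95% interval -0.20 to 1.12, adjusted p = 0.589). It was 0.19 without WT replicate 1 and 0.68 without WT replicate 2, the ends of its range with a library left out.

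Ednra (chromosome 8, 77663031 to 77724464, minus strand) encodes ETA, the constrictor receptor known from smooth muscle. It measured 5.21, 10.9 and 11.3 CPM in WT, against 13.5, 12.9 and 16.1 CPM in KO. Every KO library lay above every WT library, although the gap between the nearest of them, WT replicate 3 and KO replicate 2, was small. The log2 fold change was 0.64 (standard error 0.29, 95% interval -0.03 to 1.31, unadjusted p = 0.0583, adjusted p = 0.498), and it was between 0.35 and 0.81 in the 18 alternative settings. Smooth muscle, the tissue best known for ETA, has its own markers in these libraries. Of 10 smooth muscle and pericyte markers, 4 had an unadjusted p under 0.05 and were lower in KO (Acta2, Tagln, Des and Lmod1, log2 fold changes from -1.06 to -0.52). The list as a whole was mixed, with 7 markers fitted lower and 3 fitted higher. Those higher were Pdgfrb (0.60, unadjusted p = 0.0943), Cspg4 (0.54) and Notch3 (0.35). Each of them overlapped between the groups and was lowest in WT replicate 1. The summed level of the list was 318.5 to 397 CPM in WT and 243 to 353 CPM in KO. The part of these cells in the values of Ednra was not tested.

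Ednrb (chromosome 14, 103814625 to 103844173, minus strand) encodes ETB, which in the lung is known from ECs and above all from aerocytes, the capillary ECs of gas exchange. It measured 16.3, 26.5 and 40.6 CPM in WT, against 73.3, 26.5 and 43.5 CPM in KO. KO replicate 1 was the highest library, and KO replicate 2 was level with WT replicate 2. For Ednrb the fitted log2 fold change was 0.79 (standard error 0.42, 95% interval -0.20 to 1.77, adjusted p = 0.551). With a library left out it ran from 0.32, without KO replicate 1, to 1.15, without WT replicate 3. EC transcripts also varied between the libraries. Of 15 EC markers, 1 was higher (Kdr) and 1 lower (Nos3) at an unadjusted p under 0.05, and their summed level was 2355, 2870 and 4187 CPM in WT and 4264, 2656 and 3455 CPM in KO, highest in the same library as Ednrb. The summed macrophage, platelet and mesothelium markers were also highest in KO replicate 1, at 451, 91.2 and 225 CPM. Cdh5, the gene of VE-cadherin, was among the 3 genes whose profile over the libraries was nearest to Ednrb and measured 178, 365 and 578 CPM in WT, against 753, 340 and 499 CPM in KO. The summed level of 9 other aerocyte markers was 1657, 1638.5 and 2176 CPM in WT and 2446, 1627 and 1990 CPM in KO. Of these markers 8 were fitted higher in KO (median log2 fold change 0.36), and 0 of 9 had an unadjusted p under 0.05. The summed level of 8 markers of general capillary ECs was instead highest in WT replicate 3. It was 850, 1118 and 1623 CPM in WT and 1586, 1007 and 1421 CPM in KO. The part of EC content, or of other cells, in the values of Ednrb was not tested.

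The window of 250 bases before the RefSeq start of Ednrb is shown because this gene had the widest range among Edn1, Ece1, Ednra and Ednrb, 4.50-fold between its lowest and highest library. It lies at chr14:103843702-103843951 of GRCm38.p6 on the minus strand, inside the span counted for the gene but on no counted exon. It is given 5′ to 3′, with matches to CACCC, the core of the box bound by Krüppel-like factors, in capitals.
Ednrb: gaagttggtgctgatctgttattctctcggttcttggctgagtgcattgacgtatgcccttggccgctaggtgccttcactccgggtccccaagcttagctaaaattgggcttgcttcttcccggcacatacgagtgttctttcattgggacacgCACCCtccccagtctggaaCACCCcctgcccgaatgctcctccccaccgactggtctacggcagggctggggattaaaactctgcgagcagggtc
The box occurred 95 and 76 bases before the start. CACCC was found on either strand in 52.0% of 32851 windows of this length, so its presence alone sets no gene apart. The letters TGACG, the core of the cyclic AMP response element (17.8% of windows), also occurred, 203 bases before the start. Windows of this kind were matched for 9 of the 10 genes. Ptgis was not among them.

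Because the peptide gene was fitted lower and its enzyme and receptors higher, the genes were also set against each other within each library, which removes the scaling between libraries. The pairs were chosen after the values had been seen, so the ratios are a description. An exact permutation test (two-sided) gave p = 0.1, the smallest that 3 libraries against 3 allow, for each of the 4 pairs without overlap, or 0.175 after adjustment over the 7 pairs computed. Edn1 over Ece1, as a ratio of CPM per kilobase, was 0.437, 0.228 and 0.349 in WT and 0.169, 0.121 and 0.222 in KO. Edn1 over Ednra was 12.8, 6.93 and 8.26 in WT and 4.77, 3.15 and 4.36 in KO. Edn1 over Ednrb was 3.01, 2.11 and 1.69 in WT and 0.645, 1.13 and 1.19 in KO. For each pair the KO libraries lay below all WT libraries, with WT replicate 2 on the side of the other WT libraries, and the mean log2 ratio was lower in KO by 0.98 for Ece1, 1.16 for Ednra and 1.21 for Ednrb. The 3 ratios share the values of Edn1. Set over every other tested gene with a count in all 6 libraries, Edn1 gave ratios that were lower in all KO libraries for 22.4% of 14510 genes. The ratio of the receptors to each other, Ednra over Ednrb, overlapped between the groups and ran from 0.135 to 0.360.

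**Figure D2:**
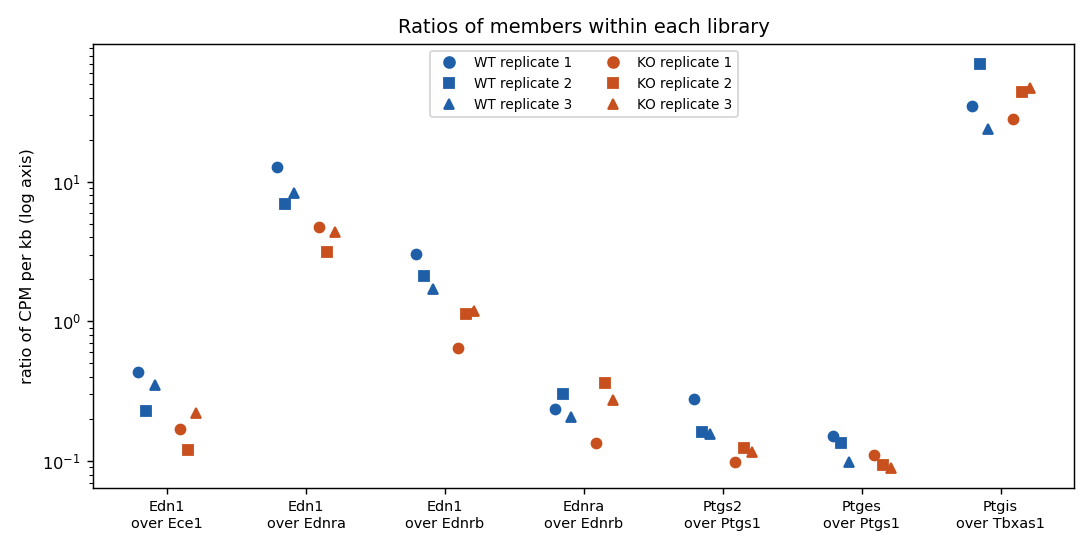
Ratio of CPM per kilobase for 7 pairs of the genes within each library, on a log axis, with WT libraries in blue and KO libraries in orange. KO libraries lie below all WT libraries for Edn1 over Ece1, Ednra and Ednrb and for Ptgs2 over Ptgs1, and the groups overlap for the other 3 pairs.

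The wider endothelin system held 7 tested genes. Edn3, the gene of endothelin-3, measured 2.99, 3.85 and 2.95 CPM in WT, against 4.13, 6.22 and 4.86 CPM in KO (log2 fold change 0.63, standard error 0.23, unadjusted p = 0.0267, adjusted p = 0.439). Its groups did not overlap, and it was the only gene among them with an unadjusted p under 0.05. Mme encodes neprilysin, a peptidase that degrades endothelin and other vasoactive peptides. It measured 37.7, 261 and 112 CPM in WT, against 268, 295 and 253 CPM in KO (log2 fold change 0.99, standard error 0.58, adjusted p = 0.577), with WT replicate 2 on the side of the KO libraries as for the alveolar type II markers. Edn2, Kel and Ecel1 did not pass the filter on low counts.

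Ptgs1 (chromosome 2, 36230426 to 36252272, plus strand) encodes cyclooxygenase-1. It measured 43.8, 213 and 103 CPM in WT, against 186, 203 and 175 CPM in KO. WT replicate 2 was the highest of the 6 libraries, and the other WT libraries lay below all KO libraries. This gave a log2 fold change of 0.65 (standard error 0.48, 95% interval -0.47 to 1.77, adjusted p = 0.640). Ptgs1 spanned 4.87-fold between libraries, the widest range of the 10 genes.

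Ptges (chromosome 2, 30889471 to 30929863, minus strand) encodes the microsomal synthase of prostaglandin E2. It measured 6.71, 29.3 and 10.3 CPM in WT, against 20.9, 19.1 and 15.9 CPM in KO. The order of the WT libraries was that of Ptgs1, with WT replicate 2 the highest of all and the other WT libraries below the KO libraries. Its log2 fold change of 0.27 was smaller than its error (standard error 0.49, 95% interval -0.85 to 1.40, adjusted p = 0.848). Ptges over Ptgs1 stayed between 0.0898 and 0.151 in the 6 libraries, a range of 1.68-fold, the narrowest of the 7 ratios.

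The windows of 250 bases before the RefSeq starts of Ptges and Ptgs1 are shown because the ratio of these genes had the narrowest range of the 7 computed. They lie at chr2:30903298-30903547 on the minus strand for Ptges, whose start falls inside the span counted for the gene, and at chr2:36230176-36230425 on the plus strand for Ptgs1. Both are from GRCm38.p6, run 5′ to 3′ and have the same box in capitals, on whichever strand it lies.
Ptges: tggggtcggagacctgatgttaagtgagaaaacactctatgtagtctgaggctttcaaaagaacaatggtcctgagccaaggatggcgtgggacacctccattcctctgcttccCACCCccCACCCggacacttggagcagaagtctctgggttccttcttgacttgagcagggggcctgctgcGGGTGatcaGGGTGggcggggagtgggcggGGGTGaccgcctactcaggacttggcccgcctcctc
Ptgs1: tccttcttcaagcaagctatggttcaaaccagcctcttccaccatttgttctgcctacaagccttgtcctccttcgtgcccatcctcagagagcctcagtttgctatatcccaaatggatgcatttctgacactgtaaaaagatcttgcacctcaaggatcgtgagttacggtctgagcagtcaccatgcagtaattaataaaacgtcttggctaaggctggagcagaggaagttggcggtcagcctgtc
The Ptges window held 5 such boxes, 136, 129, 66, 57 and 36 bases before the start. The Ptgs1 window held none of the motifs searched, each searched on both strands. Beside CACCC these were the AP-1 site, spelled TGANTCA and found in 6.75% of all windows, the cyclic AMP response element TGACGTCA in 1.55%, its core, which overlaps it, in 17.8%, the GATA site AGATAA in 9.99%, the E-box CACGTG in 6.02%, the TATA box TATAAA in 12.4% and the core of the hypoxia response element, ACGTG, which overlaps the E-box, in 16.6%. The G and C content was 59.6% in the Ptges window and 48.0% in the Ptgs1 window.

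Ptgs2 (chromosome 1, 150100031 to 150108227, plus strand) encodes cyclooxygenase-2, the enzyme that is induced by stimuli. It measured 14.4, 40.6 and 18.9 CPM in WT, against 21.6, 29.7 and 24.0 CPM in KO. All KO libraries lay between WT replicate 3 and WT replicate 2. Between the groups the log2 fold change was 0.03 (standard error 0.36, 95% interval -0.81 to 0.86, adjusted p = 0.984), and its sign turned in 5 of the 18 alternative settings. Set against Ptgs1 within each library, Ptgs2 was at a ratio of 0.280, 0.161 and 0.155 in WT and 0.0985, 0.124 and 0.116 in KO. These ratios did not overlap, and the mean log2 ratio was lower in KO by 0.77. Over every other tested gene with a count in all libraries, Ptgs2 gave ratios lower in all KO libraries for 7.40% of the genes.

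Ptgis (chromosome 2, 167191805 to 167240604, minus strand) encodes prostacyclin synthase. It measured 15.3, 24.7 and 16.7 CPM in WT, against 19.0, 22.2 and 22.5 CPM in KO, a range of 1.62-fold that was the narrowest of the 10 genes. The log2 fold change was 0.17 (standard error 0.20, 95% interval -0.30 to 0.63, adjusted p = 0.764).

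Tbxas1 (chromosome 6, 38875404 to 39084585, plus strand) encodes thromboxane synthase, which is known from platelets and macrophages. It measured 1.57, 1.26 and 2.48 CPM in WT, against 2.41, 1.80 and 1.69 CPM in KO. The groups overlapped throughout (log2 fold change 0.16, standard error 0.35, 95% interval -0.64 to 0.97, adjusted p = 0.876). Prostacyclin synthase exceeded thromboxane synthase in every library, with a ratio of Ptgis to Tbxas1 per length from 23.9 to 69.4. The size of this ratio depends on the counted lengths, 2567 bases for Ptgis and 9094 for Tbxas1.

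**Figure D3:**
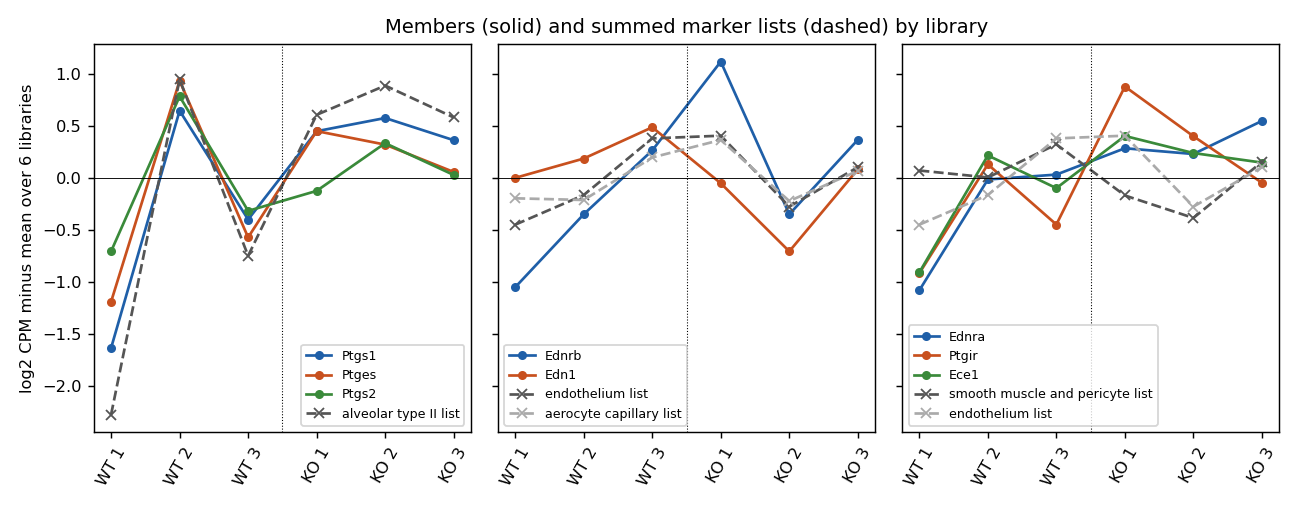
Profiles of 8 of the genes (solid lines) and of summed marker lists (dashed lines) over the 6 libraries, as log2 CPM minus the mean of each line. Ptgs1, Ptges and Ptgs2 are lowest in WT replicate 1 and highest in WT replicate 2, where the alveolar type II list is also lowest and highest, and Ednrb is highest in KO replicate 1, where the endothelium and aerocyte lists are also highest. Lists that are not drawn share these extremes, fibroblast and neutrophil for the former and macrophage, platelet and mesothelium for the latter. The general capillary list, also not drawn, is highest in WT replicate 3.

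The libraries in which Ptgs1, Ptges and Ptgs2 were lowest and highest, WT replicates 1 and 2, were also those with the lowest and highest sum of the 7 alveolar type II markers. All 7 were fitted higher in KO (median log2 fold change 0.77), and 0 had an unadjusted p under 0.05. Lung epithelium is itself known to express cyclooxygenases. The summed fibroblast and neutrophil markers were likewise lowest in WT replicate 1 (446 and 30.5 CPM) and highest in WT replicate 2 (1106 and 82.0 CPM). The part of alveolar type II cells, fibroblasts or neutrophils in the levels of the prostanoid synthases was not tested.

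Ptgir (chromosome 7, 16906490 to 16910905, plus strand) encodes the prostacyclin receptor IP, which raises cyclic AMP in smooth muscle and platelets. It measured 1.15, 2.38 and 1.59 CPM in WT, against 3.997, 2.87 and 2.10 CPM in KO. KO replicate 3 lay below WT replicate 2, and the other KO libraries lay above all WT libraries. The log2 fold change was 0.80 (standard error 0.37, 95% interval -0.06 to 1.67, unadjusted p = 0.0639, adjusted p = 0.504), and it ran from 0.53 to 1.10 with a library left out.

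Among the other prostanoid receptors, the thromboxane receptor gene Tbxa2r had an unadjusted p under 0.05. It measured 0.906, 1.44 and 1.97 CPM in WT, against 3.48, 2.35 and 2.38 CPM in KO, without overlap, for a log2 fold change of 0.95 (standard error 0.36, unadjusted p = 0.0316, adjusted p = 0.458). Platelets carry both receptors. Of 8 platelet and megakaryocyte markers, 4 were higher in KO at an unadjusted p under 0.05 (Pf4, Ppbp, Itga2b and Gp9), all 8 were fitted higher, and their summed level was 32.3 to 50.2 CPM in WT and 47.1 to 91.2 CPM in KO. Tbxas1, also known from platelets, overlapped between the groups (log2 fold change 0.16). Of the 10 smooth muscle and pericyte markers, 7 were fitted lower in KO and 3 higher. The part of platelets or smooth muscle in the values of Ptgir and Tbxa2r was not tested. The prostaglandin E2 receptor genes Ptger1, Ptger2, Ptger3 and Ptger4 were at 0.441 to 3.29 CPM, and each overlapped between the groups. Ptgdr and Ptgdr2 did not pass the filter on low counts.

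In the remaining pathway genes, 73 other than the 10 were tested, and 0 passed an adjusted p of 0.05 in edgeR's quasi-likelihood test. At an unadjusted p under 0.05 there were 5 of the 73 (6.85%), 3 higher and 2 lower in KO. Abcc4, which exports prostanoids and cyclic nucleotides, was higher (7.78 to 12.9 CPM in WT and 11.04 to 19.4 CPM in KO, log2 fold change 0.61, unadjusted p = 0.0496, adjusted p = 0.484). Ptges3, which encodes the cytosolic prostaglandin E synthase, known also as the heat shock protein 90 co-chaperone p23, was lower. It measured 30.3, 24.8 and 29.9 CPM in WT, against 17.7, 17.7 and 17.9 CPM in KO (log2 fold change -0.67, standard error 0.13, 95% interval -0.97 to -0.38, unadjusted p = 0.00087, adjusted p = 0.172). Its KO libraries lay close together and below all WT libraries, unlike those of Ptges. Ptges2, a further prostaglandin E synthase gene, measured 4.16, 5.55 and 3.89 CPM in WT, against 3.78, 4.56 and 4.17 CPM in KO, and its groups overlapped (log2 fold change -0.12, adjusted p = 0.845). Npr3, the clearance receptor of natriuretic peptides, measured 202, 170.0 and 275 CPM in WT, against 122, 75.3 and 129 CPM in KO (log2 fold change -0.99, standard error 0.26, unadjusted p = 0.00616, adjusted p = 0.307).

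Among the genes of prostanoid transport and breakdown, Hpgd, Slco2a1 and Cbr2 had the highest levels. Hpgd, the dehydrogenase that inactivates prostaglandins, measured 530.0, 424 and 581 CPM in WT, against 600.0, 503 and 633 CPM in KO (log2 fold change 0.18, 95% interval -0.31 to 0.67, adjusted p = 0.763). Slco2a1, the transporter that takes prostaglandins up from the circulation, measured 166, 248.5 and 325 CPM in WT, against 405, 257 and 320 CPM in KO (log2 fold change 0.41, 95% interval -0.25 to 1.07, adjusted p = 0.628). Cbr2, a carbonyl reductase, measured 366, 682 and 361 CPM in WT, against 548, 902 and 569 CPM in KO (log2 fold change 0.52, adjusted p = 0.602). The summed level of 3 club cell markers was 15349, 40401 and 19910 CPM in WT and 33558, 56766 and 35632 CPM in KO. It was highest in KO replicate 2, as were Cbr2 and the summed alveolar type I markers (1585 CPM). The part of these or other cells in the levels of Cbr2, Hpgd and Slco2a1 was not tested. Of the 6 genes of transport and breakdown, 5 were fitted higher in KO. The release of arachidonate was covered by 12 tested genes, of which 0 had an unadjusted p under 0.05 and 9 were fitted higher. The 10 tested lipoxygenase and leukotriene genes had 0 at an unadjusted p under 0.05. Of the 14 genes that couple the receptors to calcium and cyclic nucleotides, 12 were fitted lower, with log2 fold changes between -0.26 and 0.08 and 0 at an unadjusted p under 0.05.

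**Figure D4:**
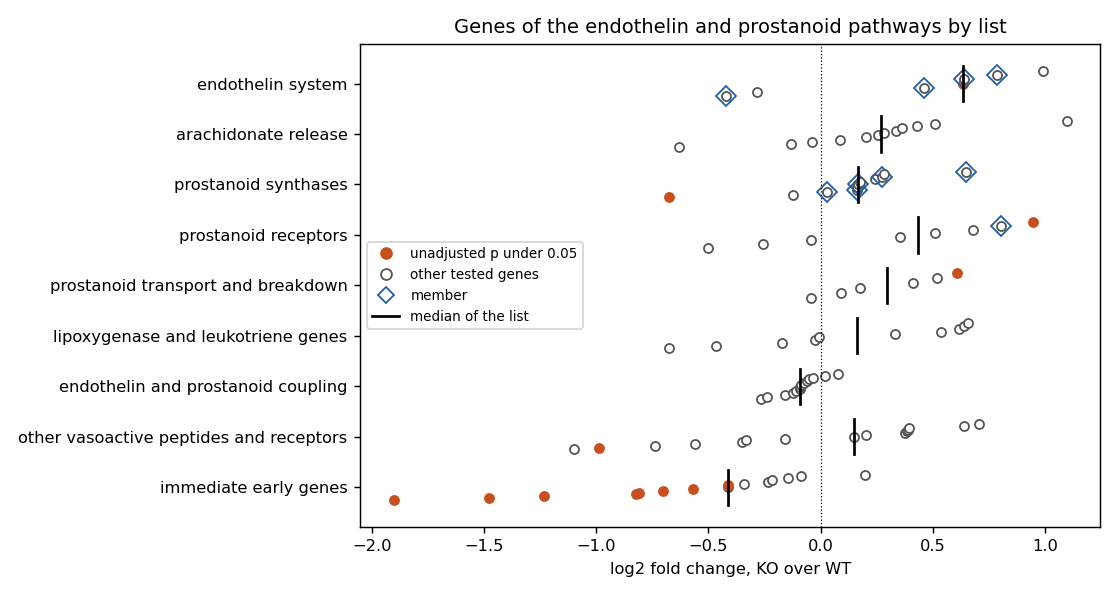
Log2 fold change of KO over WT for every tested gene of 9 lists, with filled orange circles for an unadjusted p under 0.05, blue diamonds around the 10 genes described here and a black line at the median of each list. Medians lie between -0.09 and 0.63, except for the immediate early genes at -0.41.

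Edn1 and Ptgs2 are known to be induced quickly by stimuli, as are the immediate early genes. Of 15 tested genes of that list, 8 had an unadjusted p under 0.05, all lower in KO, against 10.3% of all genes in either direction. These were Atf3 (log2 fold change -1.90, adjusted p = 0.0721), Nr4a1 (-1.23, adjusted p = 0.153), Egr3, Fosb, Egr2, Dusp1, Btg2 and Junb, and the median of the list was -0.41. In the whole list 14 genes were fitted lower and 1, Egr1, was fitted higher (0.20). None passed an adjusted p of 0.05 in edgeR's quasi-likelihood test. The summed level of the list was 576 to 621 CPM in WT and 407 to 512 CPM in KO, and WT replicate 2, at 621 CPM, was on the side of the other WT libraries. Edn1 was fitted lower (-0.42), whereas Ptgs2 was not (0.03). Any link of Edn1 or Ptgs2 to the levels of this list was not tested.

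Genes with a profile most like each of the 10 were sought by the root mean square difference of log2 CPM over the 6 libraries, each gene centred on its own mean. Nearest to Edn1 were S1pr1, the EC receptor of sphingosine-1-phosphate (0.04), A4galt (0.05) and Dctd (0.09). S1pr1 measured 119, 135 and 177 CPM in WT, against 119, 76.5 and 123 CPM in KO, with the same low library, KO replicate 2, and the same high library, WT replicate 3, as Edn1. Nearest to Ece1 were Itm2b (0.03), Brip1os and Ly6e, nearest to Ednra Tspan4 (0.07), Tmem203 and Trp53i13, and nearest to Ednrb Mmp12 (0.14), Pxdn and Cdh5. For Ptgs1 they were H2-DMb1 (0.06), ENSMUSG00000035349 and Sorcs2, for Ptgs2 Nrg4 (0.08), Ighv1-64 and Il6ra, and for Ptgis Rnf32 (0.05), Agpat5 and Rnf121. For Ptges they were Elovl7 (0.05), Cd302 and Proc, for Tbxas1 4833403J16Rik (0.06), Cep128 and Atg4a, and for Ptgir Pcdhga4 (0.09), Hacd4 and Sost. Among the 10 genes themselves the nearest pairs were Ece1 and Ednra (0.20), Ece1 and Ptgir (0.22), Ptgs2 and Ptgis (0.25) and Ptgs1 and Ptges (0.29), and the farthest was Edn1 and Ptgs1 (0.96).

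The log2 fold changes of Ptgs1, Ptgs2, Ptgis, Ptges and Ptgir depended on which WT library was left out. They moved upwards without WT replicate 2 and downwards without WT replicate 1. Ece1 and Ednra moved likewise, to 0.68 and 0.77 without WT replicate 2 and to 0.19 and 0.35 without WT replicate 1. Without WT replicates 2 and 1 in turn, Tbxas1 (-0.064 and 0.08) and Ednrb (0.72 and 0.51) moved downwards both times. Without WT replicate 1, the log2 fold change was 0.24 for Ptgs1, 0.03 for Ptgis, -0.10 for Ptges and -0.26 for Ptgs2. Without WT replicate 2, Ptges was called, with a log2 fold change of 1.11 (adjusted p = 0.0383 in edgeR's quasi-likelihood test, with a range of 0.0383 to 0.991 over all alternatives), and that of Ptgs1 was 1.32 (adjusted p = 0.0624, range 0.0624 to 0.991). An unadjusted p under 0.05 was then reached by 7 of the 10 genes (Ece1, Ednra, Ptgs1, Ptgs2, Ptgis, Ptges and Ptgir), and the groups did not overlap for 7. The counts over all genes moved as well. Without WT replicate 2, 5.29% of 14950 genes passed an adjusted p of 0.05, 21.3% had an unadjusted p under 0.05 and 41.4% had groups that did not overlap. The other libraries left out in turn gave 0 calls among the 10 genes. Edn1 was at -0.49 without WT replicate 2 (adjusted p = 0.303, range 0.303 to 0.991). It moved further with any other library left out. It went towards 0 without KO replicate 2, to -0.25, and without WT replicate 3, to -0.30. It went away from 0 without KO replicate 3 (-0.58), WT replicate 1 (-0.54) and KO replicate 1 (-0.52).

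**Figure D5:**
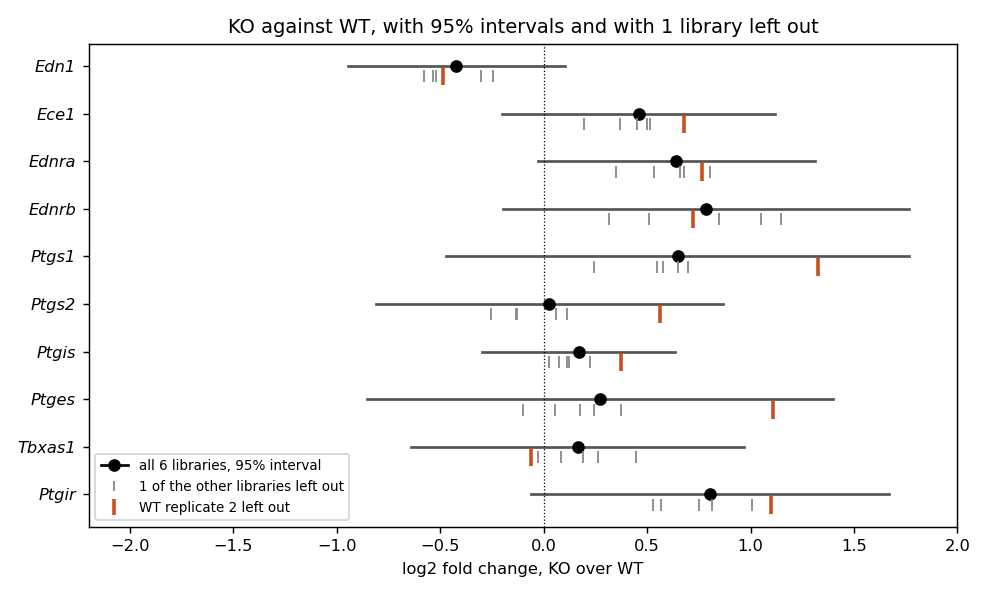
Log2 fold change of KO over WT for each of the 10 genes with all 6 libraries (black circles, bars for the 95% interval) and with a single library left out (grey ticks, with WT replicate 2 left out in orange). Every interval includes 0, and the orange ticks lie farthest to the right for Ptgs1 at 1.32 and Ptges at 1.11.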

How the data were processed

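The values deposited by the authors are raw counts, a whole number of reads for each gene in each library, with the gene length in bases beside them. Per the labels and file headers, reads were aligned to mm10 with STAR 2.5.4b and counted by strand over exons with featureCounts 2.0.0 (Ensembl release 84, GRCm38). Reads aligning to several places or genes were not counted. None of the 10 genes shares exons on its own strand with another gene. Symbols were given to 47224 of 47729 genes.

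Groups were taken from the labels. Counts were tested in R 4.3.3 with edgeR 4.0.16 (TMM scaling, filterByExpr, glmQLFit and glmQLFTest, genotype as the only term), with Benjamini-Hochberg adjustment over 14625 genes. The study's methods name DESeq2, which was run as an alternative (1.42.0), as was limma-voom (limma 3.58.1). Standard errors are the log2 fold change over the square root of the F statistic. The scripts were tested on simulated data. The likeness measure used log2(CPM + 0.5).

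The 10 genes and the lists were chosen with earlier results of these data known. By rule, the text names each of the 10 genes, pathway list genes with an unadjusted p under 0.05, and the 3 genes nearest to each of the 10. The rule allows the most abundant gene of a list and the cell type markers to be named. Other list genes without that p (Mme, Hpgd, Slco2a1, Ptges2, Egr1, the E2 receptors) were named after their values were seen, as were the ratios. Promoter windows are from RefSeq (GRCm38.p6). Libraries differed from each other by more than sampling noise. Depth is the total count, and precision is given by the spread between 3 libraries per group.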

Additional observations from a re-analysis of the deposited data

How the results depend on the processing

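Of the 10 genes, 7 kept the direction of their log2 fold change in all 18 alternatives. Ptgs2 turned to -0.077 with total counts alone, -0.10 with scaling by the endothelium markers, and -0.26, -0.14 and -0.13 without WT replicate 1, WT replicate 3 and KO replicate 2, for a range of -0.26 to 0.56 with a library left out. Ptges turned to -0.10 without WT replicate 1 (range -0.10 to 1.11), and Tbxas1 to -0.064 without WT replicate 2 and -0.03 without KO replicate 1 (range -0.064 to 0.45). Ptges was called without WT replicate 2 (1 of the 10 genes, against 0 otherwise, for a range of 0 to 1 with a library left out). At an unadjusted p under 0.05 there were 1 of the 10 with limma-voom, upper-quartile scaling or total counts, 2 with the likelihood ratio test, 4 without the low-count filter and 0 to 7 with a library left out. Groups did not overlap for 2 of the 10 with upper-quartile scaling, total counts or endothelium scaling, and for 1 to 7 with a library left out. Over all genes, 16 were called, and 185 with DESeq2, 26 with limma-voom or RLE scaling, 211 with the likelihood ratio test, 31 with upper-quartile scaling, 123 with total counts, 53 with endothelium scaling, 152 without the filter and 0 to 791 with a library left out. Genes at an unadjusted p under 0.05, 1506 otherwise, were 640 with endothelium scaling, 2293 without the filter and 986 to 3188 with a library left out. Total counts and endothelium scaling moved the median log2 fold change of all genes from 0.03 to -0.13 and -0.14, and the higher and lower calls from 5 and 11 to 61 and 62 and to 23 and 30. With the replicate block, 0 genes and 0 of the 10 were called, and 1 of the 10 (Ednra) and 1776 of all genes had an unadjusted p under 0.05. The shared numbers were not taken to pair the libraries, since deviations of same-numbered libraries correlated at -0.0814, 0.219 and 0.0111 and the labels name no shared litter or day. WT replicate 2 correlated best with KO replicate 2, while WT replicates 1 and 3 correlated best with KO replicates 3 and 1. The causes of these shifts were not tested. Genes near 1 CPM, Tbxas1 and Ptgir, rest on few counts.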
